A study of Homo sapiens with 22 samples.

Results

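Chromatin regions that first carried a Jun peak late in PMA treatment, but were already acetylated before it, were examined in K562 cells. A region of the Jun table was taken when it lay on chromosomes 1 to 22 or X, overlapped a peak of both Jun libraries at 72 h and of none of the 4 Jun libraries at 0 or 6 h, and overlapped a peak of both H3K27ac libraries at 0 h. This left 1727 of 138731 regions (1.24%). They were 4.73% of the 36516 late Jun regions, that is, those with peaks in both 72 h libraries and in no earlier one, and 6.85% of the 25212 Jun regions acetylated at 0 h. They are called pre-acetylated late Jun regions here.

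The samples were wild-type K562 cells, a human leukemia line with erythroid and megakaryocytic features, treated with 25 nM of the phorbol ester PMA for 0, 6 or 72 h and crosslinked. CUT&RUN libraries with antibodies to H3K27ac, CTCF and Jun were made at all 3 times and with an antibody to Rad21 at 0 and 72 h, each in 2 replicates, giving 22 libraries in 11 groups. All groups are cultures of 1 line, the 0 h libraries are its untreated state, and no library of cells kept without PMA for 72 h was used here, so time in culture and time in PMA cannot be told apart. As a check of the line, 7 of 8 spans of erythroid and blood genes that K562 expresses (not GATA1) held an H3K27ac peak in both 0 h libraries.

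H3K27ac, the acetylation of lysine 27 on histone H3, is laid down at active promoters and enhancers. Jun is a subunit of AP-1, a family of dimeric factors that bind a short palindromic site and whose activity rises when phorbol esters switch on protein kinase C. AP-1 is known both to join sites that are already open and to help open new ones. CTCF binds insulators and loop anchors, and Rad21 is a subunit of cohesin, the ring that extrudes chromatin loops.

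Where these regions covered a promoter, its sequence could be read. RefSeq promoter windows, 250 bases before to 50 after the start, were overlapped by 258 of the regions. The 250 bases before the start were touched at 317 promoters, and these bases were searched on both strands. The AP-1 heptamer, TGACTCA or its reverse complement TGAGTCA, was in 11 of the 317 (3.47%), against 1458 of all 34961 promoters (4.17%). Late Jun regions that were newly acetylated (no H3K27ac peak at 0 h and one in both 72 h libraries) touched 188 promoters, of which 38 (20.2%) held it. Late Jun regions that never carried an H3K27ac peak touched 293, of which 80 (27.3%) did. Among promoters at acetylated regions with a Jun peak in every library the share was 206 of 3009 (6.85%). The CRE octamer TGACGTCA, bound by Jun paired with ATF factors, was in 0 of the 317 promoters and in 577 of all promoters (1.65%). It was as rare at newly acetylated (1 of 188) and never acetylated (2 of 293) late Jun regions and at acetylated regions without a Jun peak (3 of 505). At acetylated regions with constant Jun peaks 6.68% of promoters held it, and where Jun peaks were lost 7.24%. The median GC content of the 317 was 64%, close to the 63.6% of promoters with constant Jun peaks and above the 49.8% of those at newly acetylated late Jun regions. A match in these letters is no measured site, and a heptamer outside this window or in a distal region was not looked for.

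**Figure D1:**
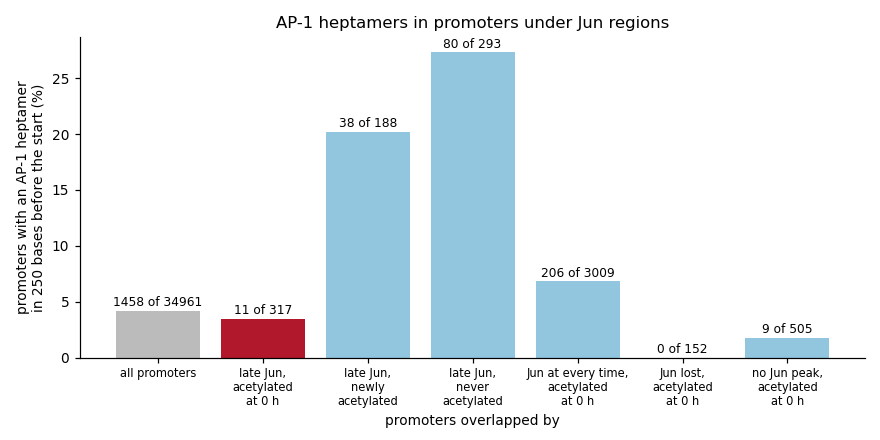
Share of RefSeq promoters with an AP-1 heptamer in the 250 bases before the start, for all promoters and for those overlapped by 6 sets of Jun regions, with the counts above each bar. The red bar, the pre-acetylated late Jun regions, stands at 3.47%, beside 4.17% for all promoters and 20.2% and 27.3% for the other late Jun regions.

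The promoters shown next are the 3 with the heptamer (in capitals) whose Jun region covered the whole window and had the highest Jun CPM at 72 h, followed by the 2 with the highest Jun CPM at 72 h that lack it. All are 5′ to 3′ on the gene's strand, from RefSeq on GRCh38.p14, and end at the base before the start.
LYPLAL1, chr1:219174711-219174960, plus strand: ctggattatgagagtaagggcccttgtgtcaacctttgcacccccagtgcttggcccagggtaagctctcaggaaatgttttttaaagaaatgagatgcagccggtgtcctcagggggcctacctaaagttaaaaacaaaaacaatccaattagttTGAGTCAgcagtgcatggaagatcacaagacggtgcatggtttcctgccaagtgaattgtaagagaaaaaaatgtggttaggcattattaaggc
LOC105374284, chr3:193837472-193837721, minus strand: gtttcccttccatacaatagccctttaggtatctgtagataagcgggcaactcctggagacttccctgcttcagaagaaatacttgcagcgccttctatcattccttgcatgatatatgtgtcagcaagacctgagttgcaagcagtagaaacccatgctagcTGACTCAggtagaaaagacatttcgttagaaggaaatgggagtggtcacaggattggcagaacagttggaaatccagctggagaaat
LOC105373836, chr2:201116685-201116934, minus strand: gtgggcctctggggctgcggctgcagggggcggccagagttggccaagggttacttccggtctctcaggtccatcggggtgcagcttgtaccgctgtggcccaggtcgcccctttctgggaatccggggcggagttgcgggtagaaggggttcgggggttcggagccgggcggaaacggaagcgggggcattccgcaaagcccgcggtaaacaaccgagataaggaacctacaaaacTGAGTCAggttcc
ZMPSTE24, chr1:40257986-40258235, plus strand: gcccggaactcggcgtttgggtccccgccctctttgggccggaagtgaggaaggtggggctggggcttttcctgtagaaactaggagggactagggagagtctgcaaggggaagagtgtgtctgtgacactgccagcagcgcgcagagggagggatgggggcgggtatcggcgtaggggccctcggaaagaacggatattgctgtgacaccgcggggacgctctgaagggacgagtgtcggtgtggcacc
SNX27, chr1:151611800-151612049, plus strand: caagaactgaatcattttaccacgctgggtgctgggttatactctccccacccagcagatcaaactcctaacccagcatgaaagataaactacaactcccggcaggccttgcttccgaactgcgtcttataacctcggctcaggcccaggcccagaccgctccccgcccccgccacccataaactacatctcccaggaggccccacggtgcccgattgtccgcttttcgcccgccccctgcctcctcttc

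At LYPLAL1, which encodes a lysophospholipase-like enzyme, the heptamer starts 94 bases before the gene's start and the Jun level was 14.9 and 11.6 CPM (counts per region scaled to library size with edgeR's TMM factors) at 0 h, 8.63 and 8.58 at 6 h, then 7.09 and 6.75 by 72 h. With TMM factors both 72 h libraries lay below all earlier ones although the peaks were called only at 72 h. Orders of libraries in this paragraph are those with TMM factors, and other scalings can change them. At the start of LOC105374284 Jun was 5.98 and 6.02 CPM at 0 h and 7.32 and 5.73 at 72 h, and at that of LOC105373836 it was 5.25 and 3.01, then 12.9 and 9.12 at 6 h, then 6.37 and 5.35 by 72 h. ZMPSTE24, which encodes the protease that matures lamin A, lacks the heptamer in this window and had 14.9 and 18.1 CPM at 0 h and 15.7 and 13.9 at 72 h. SNX27, which encodes a sorting nexin of recycling endosomes, also lacks it and had 8.6 and 13.9 CPM at 0 h and 12 and 14.3 at 72 h. The 0 and 72 h libraries overlapped at LOC105374284, ZMPSTE24 and SNX27, and at LOC105373836 both 72 h libraries lay just above both 0 h libraries and below both 6 h libraries.

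The deposited files gave total counts in regions between 4766421 and 18883962 per Jun library, 12634261 and 27266241 for H3K27ac, 4398797 and 7285286 for Rad21 and 2553677 and 6068421 for CTCF. The 72 h Jun libraries were deeper than the others: their mean total was 2.18 times that at 0 h and 3.51 times that at 6 h, and they had 2.87 times as many peaks as those at 0 h. Counts on the mitochondrial chromosome were 24% and 27.7% of the total in the 0 h Jun libraries against 9.07% and 8.58% at 72 h. Replicates agreed most closely for H3K27ac: across the pre-acetylated late Jun regions, which are not independent, Pearson's r of log2 CPM was between 0.989 and 0.994 for H3K27ac, and 0.808, 0.736 and 0.932 for Jun at 0, 6 and 72 h.

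Pre-acetylated late Jun regions were 205 to 2034 bp wide, and 1372 of them (79.4%) overlapped a gene span, against 67.5% of all Jun regions. Starts of chromosome 8 were not used; of the 1655 regions elsewhere, 475 (28.7%) lay within 1000 bp of a start, against 9.49% of all Jun regions, 3.32% of newly acetylated late Jun regions and 31.9% of acetylated regions with constant Jun peaks. The median distance from the Jun summit, taken in replicate 1 at 72 h, to the nearest H3K27ac summit was 228 and 233 bp in the 0 h libraries, whose peaks the rule required, and 245 and 243 bp in the 72 h libraries. It was 128 and 142 bp at 72 h for newly acetylated late Jun regions, and 200 and 195 bp at 0 h for acetylated regions with constant Jun peaks. An H3K27ac region was shared with a Jun region that had an earlier Jun peak by 508 of the 1727 (29.4%), and the median distance to the nearest such Jun region was 4747 bp. At newly acetylated late Jun regions that median was 11123 bp.

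Peaks were called at these regions at 72 h in deeper libraries, while the Jun level scaled with TMM factors was slightly lower. In bulk libraries, signal in fewer cells and less signal per cell cannot be told apart. The median raw Jun count was 33 and 35 in the 0 h libraries, 20 and 24 at 6 h, then 89 and 94 by 72 h, and in 1711 of the 1727 regions both 72 h counts were above both 0 h counts, as in 117279 of all 138731 Jun regions. Divided by the TMM-scaled library sizes, the medians were 4.81 and 5.02 CPM at 0 h, 4.54 and 4.38 at 6 h, then 4.23 and 3.99 by 72 h. By CPM, both 72 h libraries were above both 0 h libraries in 320 regions (18.5%, against 43.2% of all Jun regions) and below both in 804 (46.6%, against 35.2%). The regions were chosen by Jun peaks at all 3 times and H3K27ac peaks at 0 h, so these values, the Jun fold changes and the counts of Jun calls are a description and support nothing.

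The sign of the median Jun change depended on how libraries were scaled. For 72 against 0 h the median log2 fold change over the regions was −0.26 with TMM factors and −0.35 with DESeq2's size factors, 0.30 with total counts, 0.51 with factors taken over regions where every library had a Jun peak, and 0 with total counts that leave out the mitochondrial chromosome. Relative to all Jun regions, whose median was 0.17 with TMM factors, the difference was −0.43, and relative to all Jun regions acetylated at 0 h it was 0.71. Rescaling libraries shifts all regions alike, so these differences hardly change with scaling by construction. With TMM factors 105 of the regions passed an adjusted p of 0.05 as higher (6.08%, against 28% of all Jun regions) and 340 as lower (19.7%, against 25.7%, with 53.7% of all Jun regions called either way), and with total counts 419 and 29 (24.3% and 1.68%, against 44.3% and 15.3% of all Jun regions). For 6 against 0 h with TMM factors 48 passed as higher (2.78%) and 165 as lower (9.55%), against 13.1% and 12.2% of all Jun regions. For 72 against 6 h 110 passed as higher (6.37%) and 72 as lower (4.17%), against 12.7% and 13.5%.

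At newly acetylated late Jun regions (median width 633 bp) the median was 2.33 and 2.15 CPM at 0 h and 6.23 and 6.24 at 72 h, a median log2 fold change of 1.49. At acetylated regions with a Jun peak in every library (median width 878 bp) it went from 24.9 and 26.2 CPM to 13.9 and 13.4, or −0.98. At acetylated regions that never had a Jun peak (median width 256 bp) it went from 2.92 and 2.87 to 1.47 and 1.4, or −0.91. At 0 h the pre-acetylated late Jun regions thus had a median Jun level between those of the newly acetylated late regions and the regions with constant peaks.

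**Figure D2:**
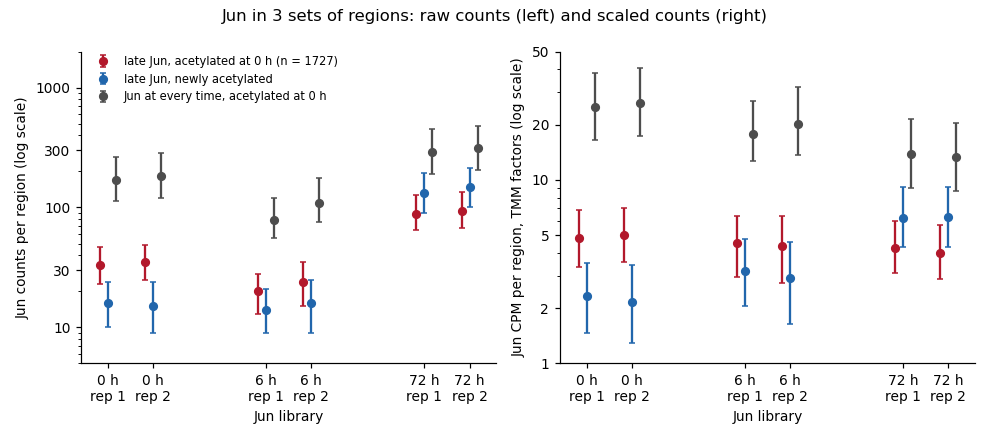
Median Jun counts (left) and Jun CPM with TMM factors (right) per region in each of the 6 Jun libraries, on log axes, for pre-acetylated late Jun regions (red), newly acetylated late Jun regions (blue) and regions with constant Jun peaks that were acetylated at 0 h (grey); bars span the quartiles over regions. The red points rise from 33 and 35 to 89 and 94 counts on the left and stay between 3.99 and 5.02 CPM on the right.

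The peak score, taken as the lower of the best overlapping peaks' −log10 q in the 72 h libraries, ran from 2.48 to 40.5 with a median of 6.57, and reached 10 in 325 regions (18.8%). It did so in 30.4% of late Jun regions that were never acetylated (median 7.72), in 62% of newly acetylated late Jun regions and in 94.7% of acetylated regions with constant Jun peaks. At the 100 regions with the lowest scores the median Jun level was 4.12 CPM at 0 h and 3.32 at 72 h. Just outside the rule, the 2001 acetylated regions with a peak in only 1 of the 72 h libraries had 3.4 and 2.22 CPM, and the 1805 with peaks in both 72 h libraries and in 1 earlier library had 7.14 and 4.79. The lowest score, 2.48, was at a region in LINC01410, and the highest, 40.5, at a region in FER1L6, with Jun at 6.56 and 6.02 CPM at 0 h and 12.7 and 12.4 at 72 h. Keeping in each 72 h library only as many of its strongest peaks as the 0 h libraries had on average left 53 regions that met the rule.

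Among the 6 regions with the highest Jun CPM at 72 h, which are per region and not per length, some had higher Jun than at 0 h and 1 did not. The region in TRERF1 and LOC105375061, the former of which encodes a zinc finger transcriptional regulator (chr6:42226121-42227172), had 12.8 and 10.6 CPM at 0 h, 24.5 and 27.9 at 6 h, then 31.5 and 27.8 by 72 h. All its later libraries were above both 0 h libraries, and H3K27ac there went from 15.4 and 16.2 CPM to 72.4 and 70.4 at 6 h, then 81.1 and 94.1 by 72 h. At chr18:2303587-2304697, with LOC105371961 as its nearest span, Jun was already 28.3 and 24.5 CPM at 0 h and stood at 29.8 and 26.1 at 72 h, with the libraries overlapping, while H3K27ac went from 289 and 287 to 86.1 and 94.7 CPM. In CCNY, which encodes cyclin Y (chr10:35421542-35422740), Jun went from 5.83 and 5.45 CPM to 19.9 and 18.4. At ELMO2, an activator of the Rac GTPase in cell migration (chr20:46375717-46377068), it went from 9.04 and 4.73 to 20.4 and 18.4. The region in LOC100506403 (chr21:35474976-35476213) and that at chr10:46156075-46158108 near LOC124902418 complete the 6, with 14.3 and 13.5 CPM against 19.4 and 21.4, and 18.7 and 15.8 against 25.2 and 26.4. In these last 4 regions both 72 h libraries lay above both 0 h libraries.

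Most pre-acetylated late Jun regions kept an H3K27ac peak at 72 h, and fewer had one at 6 h. Of the 1727, 1546 (89.5%) still overlapped an H3K27ac peak in both 72 h libraries and 79 (4.57%) in neither. At 6 h the share was lower, 1096 (63.5%) in both libraries and 304 (17.6%) in neither. By library, 68.3% and 77.6% overlapped a peak at 6 h and 92.3% and 92.6% at 72 h. The 6 h libraries had the fewest H3K27ac counts, and the part of depth in this was not tested. A peak was absent from both 6 h libraries but present in both 72 h libraries at 210 regions (12.2%). Among other Jun regions acetylated at 0 h, the share with an H3K27ac peak in both 72 h libraries was 95.2% where Jun peaks were constant, 70.4% where no Jun peak was called and 39.4% where Jun peaks were lost.

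**Figure D3:**
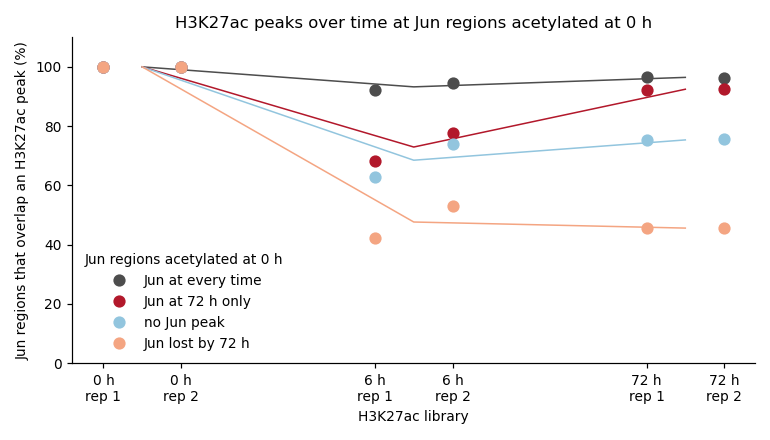
Share of Jun regions that overlap an H3K27ac peak in each of the 6 H3K27ac libraries, for 4 sets of Jun regions acetylated at 0 h; each point is a library and lines join the means of each time. The pre-acetylated late Jun regions (red, Jun at 72 h only) fall to 68.3% and 77.6% at 6 h and stand at 92.3% and 92.6% at 72 h.

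In counts, 1757 H3K27ac regions overlapped the pre-acetylated late Jun regions, and all were tested. Their median level was 23.3 and 24 CPM at 0 h, 16.9 and 17.9 at 6 h, then 17.6 and 18.1 by 72 h, with both later pairs below the 0 h pair. Against 0 h, which the rule used, the median log2 fold change was −0.42 at 6 h and −0.60 at 72 h. At 6 h 139 regions were called higher (7.91%) and 1021 lower (58.1%), against 32.3% and 26.3% of all H3K27ac regions. At 72 h 276 were called higher (15.7%) and 1159 lower (66%), against 43.4% and 38.1% of all. These are given as a description. Over all 27693 H3K27ac regions with a peak in both 0 h libraries the medians were −0.50 and −0.85. With factors taken over regions where every library had a peak, the 72 h median became 0.04, and relative to those 27693 regions it was 0.25 higher, a difference that scaling hardly moves by construction.

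The H3K27ac libraries of 6 and 72 h were not used by the rule, and the change between them was tested with edgeR's quasi-likelihood test and Benjamini-Hochberg adjustment. The rule did use Jun peaks at both times, and the Jun and H3K27ac changes were correlated over the regions (Pearson's r 0.574), so the choice of regions is not free of this change. Of the 1757 regions 417 were called higher (23.7%) and 684 lower (38.9%), against 33.1% and 30.8% of all 94865 tested H3K27ac regions and 16.6% and 51.4% of the 27693 with 0 h peaks. The median log2 fold change was −0.13, against 0.02 over all regions and −0.35 over those with 0 h peaks. The share of calls that were higher was 37.9%, but it was 65.3% with factors over regions peaked in every library (715 higher, 380 lower), 49.1% with DESeq2 (433 and 449) and 31.1% with total counts. The median of the pre-acetylated late Jun regions lay 0.15 below that of all regions and 0.22 above that of regions with 0 h peaks, which again hardly changes with scaling by construction. Over the regions whose Jun peaks reached a −log10 q of 10 in both 72 h libraries, 148 of 331 H3K27ac regions were called higher (44.7%) and 74 lower (22.4%).

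Promoter and distal regions are set side by side here, without a test of their difference. Of the 475 pre-acetylated late Jun regions within 1000 bp of a start, 36 (7.58%) were called higher for H3K27ac at 72 against 6 h and 226 (47.6%) lower. Of the 1180 farther away, 365 (30.9%) were called higher and 407 (34.5%) lower. The same split by H3K27ac region gave 7.04% higher and 47.4% lower at promoters, against 6.41% and 56.1% of all promoter regions with 0 h peaks, and 32.8% and 33.4% at distal regions, against 21.3% and 49%. The H3K27ac peak was found in both 6 h libraries at 85.9% of the promoter regions and 54.7% of the distal ones, and in both 72 h libraries at 95.2% and 87.6%.

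The 8 regions named for the largest H3K27ac gains from 6 to 72 h all lay beyond 1000 bp of a RefSeq start. Regions named for gains or falls were taken among called regions with mean CPM at or above the median, so larger changes at lower levels are left out. At chr17:40536032-40536995, near LOC107985090, H3K27ac was 16.5 and 14.1 CPM at 0 h, 7.28 and 8.47 at 6 h, then 56.6 and 65.2 by 72 h, a log2 change from 6 to 72 h of 2.94 (SE 0.13, adjusted p 1.84e-15). Both 72 h libraries were above all others there. In LOC102723324 (chr9:121393151-121393767) the level went from 20.2 and 22.9 CPM at 6 h to 118 and 141, a change of 2.58 (SE 0.12). In FOXP4, which encodes a forkhead transcription factor (chr6:41577729-41578787), it went from 12.7 and 12.7 to 64 and 76.1 CPM, a change of 2.46 (SE 0.12).

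Some regions were low at 6 h and near or above their 0 h level at 72 h. At chr1:207933334-207933788, whose nearest start in the promoter table is that of CD34, the surface marker of blood progenitors, H3K27ac was 63.5 and 67.6 CPM at 0 h, 11.3 and 11.1 at 6 h, then 57.7 and 65 by 72 h. The rise from 6 h was 2.46 (SE 0.12, adjusted p 8.03e-15), and the difference between 72 and 0 h was −0.10 (SE 0.10, adjusted p 0.384). Jun there was 3.94 and 7.31 CPM at 0 h, 1.36 and 2.37 at 6 h, then 5.71 and 5.14 by 72 h, with both 6 h libraries lowest. Near LOC124908001 (chr2:237942078-237942768) H3K27ac went from 27.5 and 29.9 to 9.8 and 8.61 and then to 40.5 and 45.8 CPM. LOC105370777 (chr15:39419330-39420274) had 16.4 and 17.7 CPM at 0 h, 10.1 and 11.4 at 6 h, then 45 and 49.1 by 72 h. The other named gains include CD84 and FMNL3, which were not called lower at 6 h. In CD84, which encodes a SLAM-family receptor found on platelets and here overlaps its antisense gene CD84-AS1 (chr1:160568052-160568618), H3K27ac was 17.8 and 18 CPM at 0 h, 15 and 16.3 at 6 h, then 58.5 and 68.9 by 72 h. In FMNL3, a formin that builds actin filaments (chr12:49662862-49663355), it was 9.71 and 13 CPM at 0 h, 17.4 and 20.7 at 6 h, then 76.6 and 75.6 by 72 h, with each later pair above the one before.

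H3K27ac fell from 6 to 72 h at other regions with a late Jun peak. In ERC1, a scaffold of the cell cortex (chr12:1325419-1326074), H3K27ac was 58.6 and 53.4 CPM at 0 h, 14.2 and 16.9 at 6 h, then 3.95 and 3.28 by 72 h, a log2 change from 6 to 72 h of −2.11 (SE 0.15, adjusted p 8.69e-12). No H3K27ac peak was left there at 72 h, and Jun was 9.04 and 8.03 CPM at 0 h and 3.09 and 3.1 at 72 h. In CPEB1, which encodes a regulator of mRNA polyadenylation (chr15:82645163-82645684), H3K27ac went from 23.8 and 20.1 CPM at 6 h to 5.1 and 5.24, also without a peak at 72 h. At BLMH, bleomycin hydrolase (chr17:30290843-30291320), it held 28.5 and 29.2 CPM at 6 h, as at 0 h (32.6 and 27.5), and 9.41 and 7.47 at 72 h. EGLN1, the prolyl hydroxylase that marks HIF-1 alpha for degradation in the presence of oxygen (chr1:231420376-231421125), went from 37.4 and 32.9 to 10.5 and 12.5 CPM and kept a peak in both 72 h libraries. The largest fall among the named regions, −3.01 (SE 0.15), was at FAM86B2-DT on chromosome 8. ZSWIM7, ZNRF1 and ZFPM2, a GATA cofactor, followed with −2.09, −1.59 and −1.73. The Jun regions at ZNRF1 and ZFPM2 nevertheless overlapped an H3K27ac peak in both 72 h libraries. At ZFPM2 no 6 h peak was overlapped, and the counted H3K27ac region covered only part of the Jun region. All 16 changes kept their direction and their call in each of the 14 alternatives run.

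**Figure D4:**
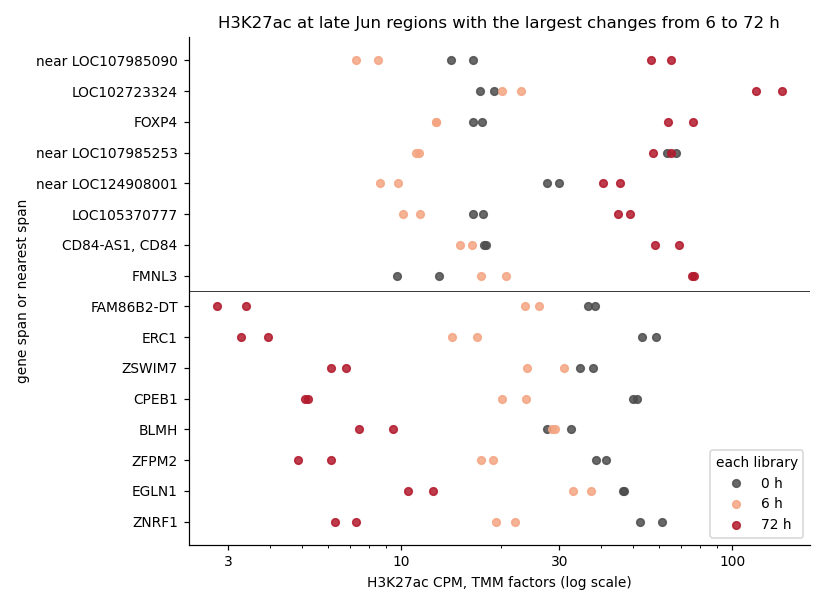
H3K27ac CPM (TMM factors, log axis) in each library at the 16 regions named for gains or falls from 6 to 72 h. Gains are above the line and falls below it. They are the largest changes among called regions with mean CPM at or above the median and libraries of both times apart. Labels give the overlapping or nearest gene span. In the upper 8 the 72 h libraries lie right of both 6 h libraries, and in the lower 8 left of them.

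Regions with larger Jun changes had larger H3K27ac changes in the same direction. Across the 1727 regions the log2 fold changes of Jun and H3K27ac from 6 to 72 h had a Pearson's r of 0.574 and a Spearman's rho of 0.525; regions are not independent, so this is a description. The Jun classes that follow come from Jun values the rule used and serve only to group the regions. They were called with TMM factors and depend on that scaling. With total counts 419 regions passed as higher and 29 as lower, and with factors over regions peaked in every library 612 and 12. The regions were not regrouped under those scalings. Of the 105 regions with Jun called higher at 72 against 0 h, 81 (77.1%) were called higher for H3K27ac from 6 to 72 h and 5 lower, with a median log2 fold change of 0.75. Of the 340 with Jun called lower, 22 (6.47%) were called higher and 203 (59.7%) lower, with a median of −0.40. The 1282 others had 314 higher and 465 lower, with a median of −0.09. Of all tested H3K27ac regions 33.1% were called higher and 30.8% lower, and of those with 0 h peaks 16.6% and 51.4%. The classes differed in place as well: 1.9% of the first, 26.2% of the second and 13% of the third overlapped a promoter window. An H3K27ac peak in both 72 h libraries was kept by 97.1%, 84.1% and 90.3%. For the first class, the number called higher for H3K27ac was between 73 and 91 under all alternatives of the H3K27ac fit.

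**Figure D5:**
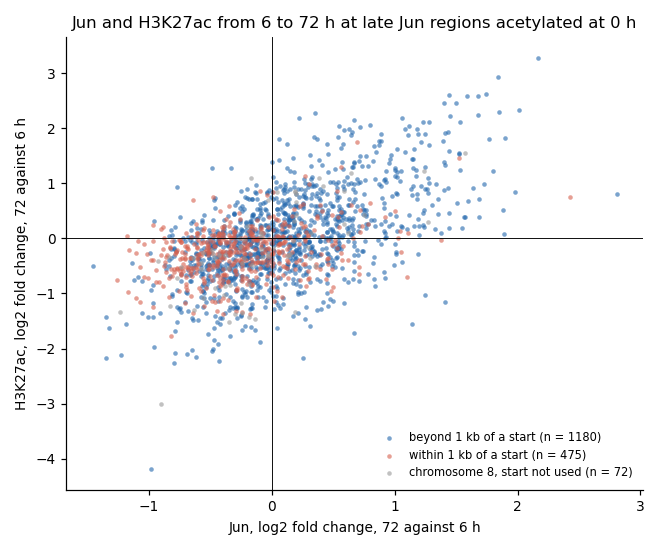
Log2 fold change of Jun (x axis) and H3K27ac (y axis) from 6 to 72 h at each of the 1727 pre-acetylated late Jun regions, coloured by distance to a RefSeq start (475 within 1000 bp, 1180 beyond, 72 on chromosome 8 where starts were not used). The points slope upward (Pearson's r 0.574), and of the 475 regions near starts 36 were called higher and 226 lower for H3K27ac.

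Few cohesin changes were called at these regions. Rad21 peaks of both libraries covered 11.7% of the pre-acetylated late Jun regions at 0 h and 8.11% at 72 h. The shares were 57.5% and 59.8% at acetylated regions with constant Jun peaks and 9.79% and 4.14% at those without a Jun peak. Of 1066 tested Rad21 regions over the pre-acetylated late Jun regions, 61 were called higher at 72 against 0 h (5.72%) and 57 lower (5.35%). The shares were 15.4% and 7.91% of all Rad21 regions, and 5.99% and 11.7% of those with H3K27ac peaks in both 0 h libraries. The median level was 4.64 and 4.43 CPM at 0 h and 4.76 and 4.34 at 72 h. These numbers moved with single libraries: without replicate 1 at 0 h there were 89 higher and 10 lower, without replicate 1 at 72 h 20 and 7, without replicate 2 at 72 h 32 and 13, and with DESeq2 9 and 15.

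Rad21 calls are given here by Jun class, with the classes as in the main Jun fit with TMM factors. The alternatives in this paragraph varied only the Rad21 fit. Of 63 tested Rad21 regions where Jun was called higher, edgeR called 25 higher (39.7%) and 0 lower, with 1 lower at an unadjusted p under 0.05 and 5 higher and 0 lower with DESeq2. Where Jun was called lower, 2 of 283 were higher (0.707%) and 28 lower (9.89%), and DESeq2 called 0 higher and 6 lower. Of all Rad21 regions 15.4% were called higher and 7.91% lower. Of those with H3K27ac peaks in both 0 h libraries 5.99% were called higher and 11.7% lower. The 9.89% called lower thus lay between 7.91% and 11.7%. Over newly acetylated late Jun regions, not split by Jun class, 57.4% of tested Rad21 regions were called higher, and over never acetylated ones 28.4%. The median log2 fold change was 1.13 in the first class and stayed between 0.94 and 1.31 in all alternatives, but the number called higher was 8 without replicate 1 at 72 h and 12 without replicate 2. In the second class the median of −0.19 became 0.08 without replicate 1 at 0 h, with 13 higher and 3 lower. At GPR4, a proton-sensing receptor (chr19:45592297-45592775), Rad21 was 3.3 and 3.17 CPM at 0 h and 12.9 and 12.8 at 72 h, a change of 1.98 on the log2 scale (SE 0.33, adjusted p 0.000194). Jun went there from 2.04 and 1.29 to 8.37 and 9.93 CPM and H3K27ac from 3.86 and 2.69 to 29.1 and 30.9.

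The other Rad21 gains named were at RIPK2, a kinase of innate immune signalling on chromosome 8 (1.94), at PPP4R1L (1.78) and at ILRUN (1.64). At RIPK2 and PPP4R1L Jun was higher at 72 h in both libraries, and at ILRUN it was level, with 13.6 and 11.8 against 13.8 and 13.5 CPM. The 4 largest falls by the naming rule were in LINC02320 (−1.76, SE 0.44), near LINC01228 (−1.59, SE 0.38), in LOC107986651 (−1.58, SE 0.35) and near MICAL3 (−1.58, SE 0.36). In LOC107986651, at a distance of 75077 bp from the start of CITED2, Rad21 went from 10.4 and 11.8 CPM to 4.76 and 2.45 and H3K27ac from 327 and 323 to 49.7 and 47.5. GPR4, RIPK2 and ILRUN kept their calls in all 10 alternatives, and the other 5 lost theirs in 1 to 3, each time without one of the Rad21 libraries or with DESeq2.

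Peaks of both CTCF libraries covered 6.77%, 4.52% and 7.18% of the regions at 0, 6 and 72 h. The shares were 1.83%, 1.31% and 3.31% at newly acetylated late Jun regions, 6.09%, 4.02% and 5.89% at acetylated regions without a Jun peak, and 15.6%, 8.92% and 21.5% at those with constant Jun peaks. Of 401 tested CTCF regions, 10 were called higher and 8 lower at 72 against 0 h (4.49% in all, against 6.79% of all CTCF regions, of which 4.07% higher and 2.72% lower), with a median log2 fold change of 0.26. At 6 against 0 h edgeR called 0 higher and 1 lower (0.249%), with 20 at an unadjusted p under 0.05 and none with DESeq2. Of all CTCF regions 2.33% were called higher and 0.325% lower there, 2.65% in all. At 72 against 6 h 1 was called higher and 1 lower (0.249% each), against 0.449% and 1.73% of all CTCF regions. The total for 72 against 0 h was 0 without either 0 h library or replicate 1 at 72 h, 3 without replicate 2 at 72 h, and 62 and 59 without replicates 1 and 2 at 6 h, so the number depended on single libraries. By the naming rule the largest rises were at the start of ZNF670 (chr1:247078428-247079080), from 3.06 and 2.53 to 8.99 and 9.55 CPM, and at RANBP1, a partner of the Ran GTPase in nuclear transport, from 27.5 and 17 to 61.5 and 51. The largest falls were in CFAP161, from 34.2 and 32.5 to 10.6 and 13.6, and near EIF4H, from 18.6 and 19.1 to 8.06 and 7.3. All 4 lost their calls without either 0 h library.

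Listed genes were set against all protein-coding genes. At least 1 pre-acetylated late Jun region overlapped the span of 1137 of 19974 protein-coding genes (5.69%). It did so for 1 of 26 megakaryocyte and platelet genes (3.85%), 1 of 24 erythroid genes (4.17%), 2 of 21 genes of blood transcription factors (9.52%), 0 of 16 genes of AP-1 subunits and 2 of 26 genes of the cytoskeleton and adhesion (7.69%). Each share rests on 2 genes or fewer. The platelet gene was RAB27B, which encodes a GTPase of granule secretion (chr18:54765601-54767009). Jun there was 7.88 and 8.6 CPM at 0 h and 9.94 and 10.8 at 72 h, and H3K27ac went from 26.9 and 31.2 CPM at 6 h to 23.1 and 22.3, a log2 change of −0.36 (SE 0.11, adjusted p 0.00752) that was not called with DESeq2, with factors over regions peaked in every library, or without replicate 2 at 6 h or at 72 h.

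The erythroid gene was ANK1, which encodes the ankyrin of the red cell membrane. H3K27ac in it was 40.3 and 37.4 CPM at 0 h, 23.5 and 25.5 at 6 h, then 15.7 and 17.9 by 72 h, a change of −0.55 on the log2 scale (SE 0.12, adjusted p 0.000278) from 6 to 72 h, and Jun went from 11.2 and 10.3 CPM at 0 h to 4.8 and 5.09. Among blood factors, ETV6, an ETS repressor (chr12:11798875-11799178), rose in H3K27ac from 6 to 72 h by 0.98 (SE 0.15, adjusted p 5.43e-06), after 25 and 23.6 CPM at 0 h and 5.81 and 8.37 at 6 h, to 14.9 and 13.7. ETS2, an ETS activator (chr21:38806947-38807424), fell by 0.51 on the log2 scale (SE 0.11, adjusted p 0.00022). With TMM factors, Jun at ETS2 overlapped between 0 and 72 h. With the same factors, both 72 h libraries at ETV6 (2.43 and 1.99 CPM) lay below both 0 h libraries (2.77 and 2.87). Other scalings can change both orders. Raw Jun counts at ETV6 were few: 51 and 47 in the 72 h libraries, after 19 and 20 before PMA. For 72 against 0 h, edgeR's log2 change of Jun at ETV6 was −0.35 (SE 0.41, adjusted p 0.482) and was not called.

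Among genes of signalling and its feedback, PRKCA encodes a protein kinase C that PMA binds and RASA1 encodes a Ras inhibitor. At PRKCA (chr17:66305092-66305678) H3K27ac was 44 and 47.7 CPM at 6 h against 47.2 and 46.8 at 72 h (0.03, SE 0.10, adjusted p 0.792), and at RASA1 (chr5:87267617-87268146) 18.4 and 21.8 against 15.2 and 20.4 (−0.18, SE 0.14, adjusted p 0.241). In VASP, which promotes growth of actin filaments (chr19:45515702-45516180), H3K27ac went from 41.4 and 38.1 CPM at 0 h to 15.1 and 17.5 at 6 h, then 32.5 and 32.8 by 72 h, a rise from 6 h of 0.99 (SE 0.12, adjusted p 5.95e-08). Jun in VASP was 1.6 and 0.573 CPM at 0 h, from 11 and 4 counts, and 3.14 and 3.27 at 72 h. In DIAPH1, a formin (chr5:141617848-141618543), H3K27ac was 74.9 and 85.6 against 85.4 and 97.1 CPM (0.18, SE 0.11, adjusted p 0.143).

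The authors' deposited table gave the label static to 1723 of the 1727 regions, upLate to 3 and downEarly to 1. The authors' deposited log2 fold change of Jun at 72 against 0 h was above 0 in 485 of the regions and below 0 in 1242, with a median of −0.26. The region labelled downEarly was the one in GPR4, where Jun was higher at 72 h than at 0 h in both libraries, so the directions in these labels were not used.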

How the data were processed

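CUT&RUN libraries of K562 cells were used in 4 region tables and 22 peak lists. Per the file headers, the region tables hold raw read counts per region and library, with the authors' log2 fold changes, adjusted p-values and a label for each region. The peak lists, 1 per library, hold the authors' fold enrichment (a ratio) and −log10 p-value and −log10 q-value for each deposited peak. The submitters' processing notes name Trim Galore 0.4.3, BWA 0.7.17, SAMtools 1.9, deepTools 3.0.1, MACS2 and bedtools 2.26, and list both hg19 and hg38. Contig names in the tables are those of GRCh38. How the regions were built and counted, and which control the caller used, are not given in the sources used here. Coordinates are printed 1-based. The 2 libraries of a group are replicates by their titles; nothing says that they came from separate cultures, so p-values measure the spread between libraries, which may be technical.

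Peaks and regions were overlapped with GenomicRanges 1.54.1 in R 4.3.3, with an overlap of at least 1 bp. For each antibody, edgeR 4.0.16 was run on the deposited counts (filterByExpr, TMM factors, glmQLFit and glmQLFTest over all time points), p-values were adjusted over all tested regions of the table by Benjamini-Hochberg, and adjusted p-values under 0.05 were called. CPM values are counts scaled by the TMM-scaled library size and are per region, not per length. The quasi-likelihood scripts were tested on simulated counts. DESeq2 1.42.0, other scalings and filters, a replicate block and left-out libraries were alternatives. Samples with the same replicate number did not deviate together by the criterion used (correlations of deviations between −0.00841 and 0.124), so no block was used. Gene names are RefSeq spans of GRCh38.p14, without exons. Promoter sequences are RefSeq's, with 34961 entries on chromosomes 1 to 22 and X, none of them on chromosome 8, for 82.1% of the protein-coding genes elsewhere. No genome was used, so regions outside promoters are given without sequence.

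Members and gene lists were chosen with earlier results of these data known. Regions named are 8 at each end of the H3K27ac change from 6 to 72 h (4 at each end for Rad21 and 2 for CTCF, 72 against 0 h) among called regions with CPM at or above the median and libraries of both times apart, the 6 with the highest Jun CPM at 72 h, both ends of the peak score, and all in the spans of listed genes. Some results on marker and listed genes are not reported here.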

Additional observations from a re-analysis of the deposited data

Results flagged for a closer look

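At 53 H3K27ac regions over pre-acetylated late Jun regions the change against 0 h was called in opposite directions at 6 and 72 h, lower first and higher later, and the difference from 6 to 72 h was called as well. They were 3.02% of the 1757 regions, against 0.833% of all H3K27ac regions. The rule required peaks in the 0 h libraries that these calls are made against, so the count is a description. The regions near LOC107985090 and LOC124908001 and in FOXP4 and LOC105370777 are among them, with 6 h log2 fold changes of −0.94, −1.65, −0.42 and −0.66 against 0 h, followed by 2.00, 0.59, 2.04 and 1.46 at 72 h. The reverse order, higher at 6 h and lower at 72 h, was found at 12 regions (0.683%, against 0.834% of all H3K27ac regions). The contrasts share the 0 h libraries.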

How the results depend on the processing

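The number of pre-acetylated late Jun regions was 325 with Jun peaks of −log10 q of at least 10, 1041 with such H3K27ac peaks, 725 with at least 50% of the region covered and 53 with 72 h Jun peaks limited to the 0 h number, and 2040 to 2731 without single libraries. The share that kept an H3K27ac peak at 72 h, 89.5%, was 95.4% with a peak of either library, 72% with −log10 q of at least 10, and 92.3% to 92.6% with 1 library. H3K27ac regions called higher from 6 to 72 h numbered 715 with factors over regions peaked in every library, 148 at regions with Jun −log10 q of at least 10, and 340 to 437 without single libraries. Those called lower numbered 449 with DESeq2, 380 with those factors, 74 at the stricter regions, and 533 to 686 without single libraries.

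Rad21 regions called higher numbered 9 with DESeq2, 37 with total counts, 8 with a mean count of at least 50 and 20 to 89 without single libraries. Those called lower numbered 15, 97, 23 and 7 to 67, and 90 with total counts without the mitochondrial chromosome, an alternative chosen after seeing the data. CTCF calls numbered 4 with DESeq2, 32 with total counts, 2 with a mean count of at least 50, 63 with only the 2 time points and 0 to 62 without single libraries. With the replicate number as a block, CTCF calls were 39, H3K27ac calls 432 higher and 698 lower and Rad21 calls 70 and 69, and the Jun and H3K27ac medians against 0 h were −0.26 and −0.60. The samples shared only a number.

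The median Jun change at 72 against 0 h was −0.35 with DESeq2, 0.30 with total counts, 0.51 with factors over regions peaked in every library, −0.11 with a mean count of at least 50, −0.36 with only the 2 time points, 0 without the mitochondrial chromosome and −0.35 to −0.21 without single libraries. That of H3K27ac was −0.55, −0.37, 0.04, −0.45, −0.52, −0.37 and −0.63 to −0.58 in the same order. The causes were not tested. Of 45 named values, 28 kept direction and call in all alternatives run and 17 did not, and the H3K27ac change from 6 to 72 h in LOC100506403 turned from −0.25 to 0.03 with factors over regions peaked in every library. Depth was lowest for CTCF, with median counts of 16 and 10 per region at 6 h, beside 20 and 24 for Jun.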

Other observations

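Pre-acetylated late Jun regions were spread over all chromosomes used. They made up 3.54% of the Jun regions acetylated at 0 h on chromosome 21 and 9.61% on chromosome 9, the lowest and the highest share. The median Jun log2 fold change at 72 against 0 h was −0.08 at the 210 regions whose H3K27ac peak was absent from both 6 h libraries and back in both at 72 h, −0.28 at the 1054 with a peak in both libraries at both times, and −0.56 at the 50 with none at either time. These values are with TMM factors and carry no test.

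The GATA hexamer, AGATAA or its reverse complement TTATCT, was in the 250 bases before the start of 22 of the 317 promoters overlapped by these regions (6.94%), against 9.18% of all promoters, 17.6% of those at newly acetylated late Jun regions and 4.29% of those at acetylated regions with constant Jun peaks.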
